A study of Mus musculus with 9 samples.

Results

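The 10 genes of the contractile apparatus of smooth muscle cells and myofibroblasts that were followed in epididymal adipose tissue during weight loss are *Acta1*, *Acta2*, *Actg2*, *Tagln*, *Myh11*, *Cnn1*, *Myl9*, *Des*, *Lmod1* and *Tpm2*. They are 10 of the 56748 genes in the count table, matched by gene symbol, and all 10 passed the filter on low counts that left 18510 genes for testing (at least 0.5 CPM, counts scaled to a common library total, in 1 or more libraries). The group was chosen by gene symbol with the fall of *Acta1* after 1 week of weight loss, measured in these counts, already known. For this reason the values of that comparison are given below as a description, with no test, and *Acta1* is not tested in any comparison. Male wild-type C57BL/6J mice entered the study at 8 weeks of age. The Pre group received a high-fat diet (HFD) for 8 weeks, and the WL1 and WL2 groups received the same 8 weeks of HFD followed by 1 or 2 weeks of standard diet (SD). Each phase had 3 RNA sequencing libraries, each with 16434450 to 22729072 counted reads. The WL1 and WL2 mice were therefore 1 or 2 weeks older than the Pre mice, and diet and age cannot be told apart. The labels do not say whether each library came from a separate mouse, so p-values measure the spread between these libraries.

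Contraction in smooth muscle is driven by myosin filaments that pull on actin filaments, and it is switched on when calcium activates myosin light chain kinase. Fat tissue holds smooth muscle cells in the walls of its arterioles, pericytes along its capillaries, and fibroblasts, which take on contractile genes when they turn into myofibroblasts in fibrosis. Smooth muscle alpha actin, encoded by *Acta2*, is the usual marker of smooth muscle cells and myofibroblasts, whereas *Acta1* encodes the alpha actin of skeletal muscle. Many contractile genes are controlled by serum response factor (SRF) and its partner myocardin, and SRF binds DNA at the CArG box, a CC and a GG on either side of a run of A and T.

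The RefSeq promoters of *Acta1*, *Acta2* and *Myl9* show where such boxes lie in these genes. Promoters of 7 of the 10 genes were found in the RefSeq table for GRCm38.p6, and those of *Actg2*, *Tagln* and *Myh11* were not. Within the 250 bases before the transcription start, a CArG box was present in 2 of the 7 promoters, and a box with at most 1 inner base changed to G or C in 3 of 7. Of 32851 mouse promoters of the same length, 1.47% held the exact box and 8.59% the exact or changed box, counted on both strands. The sequences below are the 250 bases before the start, 5′ to 3′ on the strand of the gene, with the boxes in capitals. *Acta1* lies at chr8:123894776-123895025 on the minus strand, *Acta2* at chr19:34255374-34255623 on the minus strand and *Myl9* at chr2:156775214-156775463 on the plus strand.
Acta1: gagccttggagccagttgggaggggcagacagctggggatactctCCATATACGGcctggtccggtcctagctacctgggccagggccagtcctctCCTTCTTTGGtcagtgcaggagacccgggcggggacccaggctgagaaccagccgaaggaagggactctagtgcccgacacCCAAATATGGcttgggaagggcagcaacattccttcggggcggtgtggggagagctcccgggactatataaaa
Acta2: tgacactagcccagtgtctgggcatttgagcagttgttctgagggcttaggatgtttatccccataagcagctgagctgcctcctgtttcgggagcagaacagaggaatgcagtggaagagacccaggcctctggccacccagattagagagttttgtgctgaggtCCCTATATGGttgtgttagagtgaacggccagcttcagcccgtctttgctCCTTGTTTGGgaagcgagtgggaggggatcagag
Myl9: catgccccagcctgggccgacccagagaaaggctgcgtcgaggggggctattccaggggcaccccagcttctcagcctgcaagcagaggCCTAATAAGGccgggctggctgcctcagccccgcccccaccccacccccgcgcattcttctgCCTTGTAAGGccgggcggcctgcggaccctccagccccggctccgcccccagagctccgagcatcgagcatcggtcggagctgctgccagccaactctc
*Acta1* held the exact box CCAAATATGG, which began 73 bases before the start, and 2 changed boxes further upstream, CCATATACGG at 205 bases and CCTTCTTTGG at 154 bases. *Acta2* held 2 changed boxes and no exact one within this window, CCCTATATGG at 84 bases and CCTTGTTTGG at 34 bases. *Myl9* held the exact box CCTAATAAGG at 161 bases and the changed box CCTTGTAAGG at 99 bases. The windows of *Cnn1*, *Des*, *Lmod1* and *Tpm2* held neither form. A match describes the letters of the window and not a bound site.

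**Figure D1:**
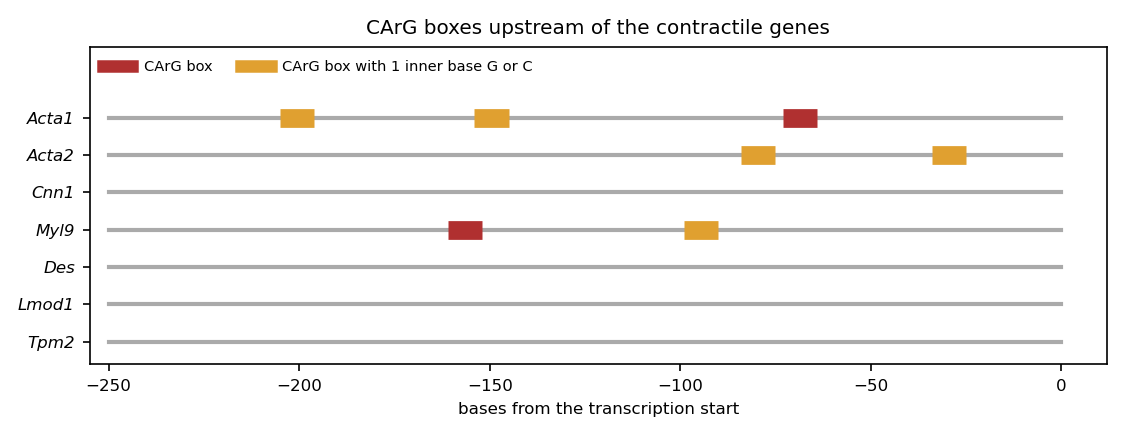
Positions of CArG boxes in the 250 bases before the transcription start of the 7 genes with a RefSeq promoter (x axis, bases from the start). Red bars mark exact boxes and yellow bars boxes with 1 inner base changed to G or C; *Acta1* has 3 boxes, *Acta2* and *Myl9* 2 each, and the other 4 genes none.

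The 2 alpha actins *Acta1* and *Acta2* were lower in all 6 libraries of the weight-loss phases than in all 3 Pre libraries, while none of the other 8 genes separated Pre from either later phase. *Acta2* fell 2.08-fold by WL2, which was larger than the spread between libraries. It was the 1 gene called among the 9 that could be tested at WL2 against Pre, or 11.1% of them, beside 10% of all genes tested, a share that dropped to 4.05% when WL2 replicate 2 was left out and to 5.26% when WL2 replicate 3 was. The second week against the first brought no call among the 9. Of the 10 genes, 2 had non-overlapping libraries between WL1 and Pre and 2 between WL2 and Pre, beside 28.7% and 30.9% of all genes. Without *Acta1*, whose fall at WL1 was known when the group was chosen, 1 of 9 did in each comparison. Both later phases are compared with the same 3 Pre libraries, so these comparisons are not independent of each other. In bulk tissue, fewer cells of a type and less RNA per cell cannot be told apart.

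*Acta2* (ENSMUSG00000035783, chromosome 19, 34218490 to 34232990, minus strand, in the coordinates of the deposited table, which names no build) had 374, 350 and 371 CPM in the Pre libraries, 158, 133 and 160 at WL1 and 155, 198 and 174 at WL2. The Pre libraries lay close together and far above the rest, and the WL1 and WL2 libraries overlapped. The mean was 365 ± 13.0 CPM in the Pre libraries, 150 ± 15.3 after 1 week and 176 ± 21.6 after 2 weeks (SD, n = 3 each). WL1 differed from Pre by -1.28 on the log2 scale (SE 0.12), a 2.43-fold lower level. At WL2 against Pre, *Acta2* was changed by -1.06 on the log2 scale (SE 0.12, 95% interval -1.33 to -0.79, edgeR adjusted p = 0.00056). The difference between WL2 and WL1 was 0.23 (95% interval -0.04 to 0.49, edgeR adjusted p = 0.325), so a partial return in the second week was not detectable beyond the spread between libraries.

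*Acta1* (ENSMUSG00000031972, chromosome 8, 124618508 to 124621490, minus strand, same coordinates) had fewer reads than *Acta2* in every library, and its level moved further. It had 28.7, 43.4 and 43.9 CPM at Pre, 5.27, 4.64 and 12 at WL1 and 6.30, 14.2 and 21.5 at WL2. Every later library lay below every Pre library, WL1 and WL2 overlapped, and the libraries of WL2 were spread widely. On average this was 38.7 ± 8.62 CPM in the Pre libraries, 7.29 ± 4.07 after 1 week and 14.0 ± 7.60 after 2 weeks (SD, n = 3 each). These give a log2 fold change of -2.41 (SE 0.45), or a 5.33-fold lower level, at WL1 against Pre. At WL2 against Pre it was -1.47 (SE 0.43), or a 2.77-fold lower level, which is likewise a description and not a test. Between WL1 and WL2 the change was 0.94 (SE 0.45).

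*Actg2*, the smooth muscle gamma actin best known from the gut, was scarce, with 389 reads in all 9 libraries together. It had 5.78, 2.98 and 1.94 CPM at Pre, 1.90, 0.459 and 2.19 at WL1 and 2.85, 1.70 and 1.68 at WL2. The highest value was in Pre replicate 1 and the lowest in WL1 replicate 2, and all 3 phases overlapped. The log2 fold change was -1.24 for WL1 and -0.77 for WL2 against Pre, where its interval ran from -1.98 to 0.44 (edgeR adjusted p = 0.400), so that neither a sizeable fall nor a small rise could be told from no change.

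**Figure D2:**
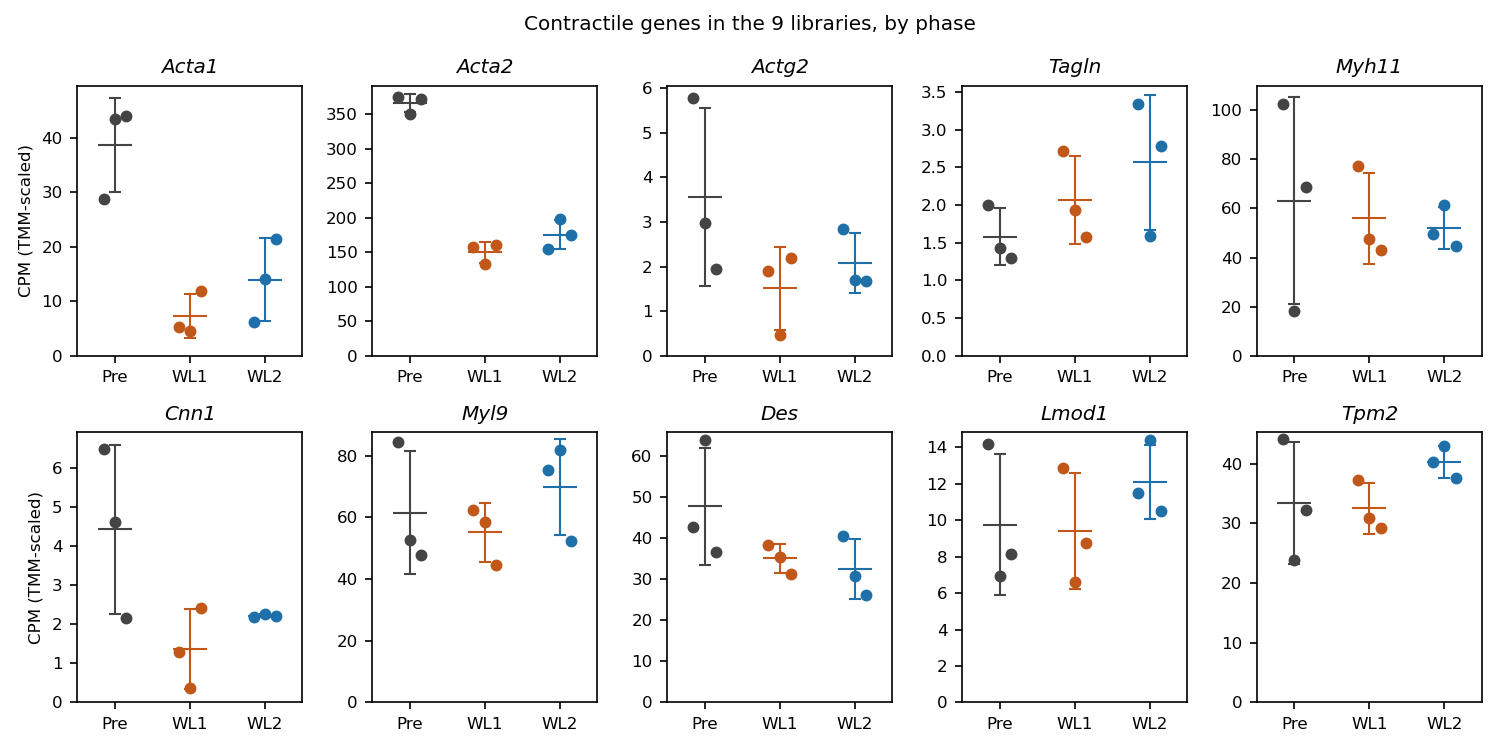
CPM scaled by TMM factors (y axes, each from 0) of the 10 contractile genes in the 9 libraries by phase (x axes). Points are libraries, horizontal bars the mean and whiskers the SD (n = 3); *Acta1* and *Acta2* have all WL1 and WL2 points below all Pre points, and the other 8 genes overlap between Pre and each later phase.

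Within the actins the makeup changed along with the level. Per gene length (FPKM, fragments scaled by gene length and by library total), *Acta1* amounted to 11%, 17.7% and 16.9% of *Acta2* at Pre, to 4.78%, 5% and 10.7% at WL1 and to 5.82%, 10.2% and 17.6% at WL2. The share was below every Pre library in all WL1 libraries and in 2 of the 3 at WL2, while WL2 replicate 3 was back within the Pre range. At WL1 this share depends on the fall of *Acta1* that was known when the group was chosen, so it is a description only. *Acta2* made up 12.8%, 10.3% and 10.9% of the summed FPKM of the 6 actin genes at Pre, 5.06%, 3.88% and 3.91% at WL1 and 5.26%, 7.94% and 7.06% at WL2. Each WL1 and WL2 share lay below each Pre share. The cytoplasmic actins that every cell uses are part of that sum. At WL1 against Pre they had log2 fold changes of 0.26 for *Actb*, with all WL1 libraries above all Pre libraries, and 0.27 for *Actg1*, neither of them called (edgeR adjusted p = 0.267 and 0.349). They were not called at WL2 either, with log2 fold changes of -0.19 for *Actb* (edgeR adjusted p = 0.403) and -0.25 for *Actg1* (adjusted p = 0.362). *Actc1*, the heart alpha actin, had 91 reads in all and a log2 fold change of -1.89 (adjusted p = 0.249).

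The coding sequences of the actins are alike, which bears on how reads are assigned. *Acta1* and *Acta2* share 85.4% of 1131 coding bases in the GENCODE M21 transcripts. Of the 50-base windows of the *Acta1* transcript, 2.22% occurred unchanged in another gene, all of them in *Gm47692*, compared with 0.352% of those of *Acta2*, 0.4% of those of *Myh11* (shared with the nonmuscle myosin gene *Myh9*) and 0% for the other 7 genes. No 100-base window of any of the 10 genes was shared. Neither the read length nor the treatment of reads with several matches is stated in the available sources.

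The genes of the myosin motor were not called. *Myh11*, the heavy chain of smooth muscle myosin and the most specific marker of mature smooth muscle, had 102, 18.5 and 68.6 CPM at Pre, 77.1, 47.7 and 43.0 at WL1 and 49.6, 61.3 and 44.7 at WL2. The Pre libraries held both the highest and the lowest of the 9 values, and the phases overlapped. The log2 fold change was -0.17 for WL1 and -0.28 for WL2 against Pre (95% interval -1.32 to 0.75, edgeR adjusted p = 0.738), and without Pre replicate 1 these turned to 0.36 and 0.25. The interval includes a fall of the size measured for *Acta2*. The ratio of *Acta2* to *Myh11* reads was 3.65, 19 and 5.41 at Pre, 2.04, 2.78 and 3.73 at WL1 and 3.12, 3.23 and 3.9 at WL2. The ratio of 19 belongs to Pre replicate 2, in which *Myh11* was lowest while *Acta2* was at the level of the other Pre libraries.

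*Myl9*, the regulatory light chain that myosin light chain kinase acts on, was measured with 10358 reads. It had 84.5, 52.5 and 47.7 CPM at Pre, 62.5, 58.4 and 44.5 at WL1 and 75.2, 81.9 and 52.4 at WL2. The phases overlapped, and the highest WL1 value lay below the highest values of Pre and of WL2. Its log2 fold change was -0.16 for WL1 and 0.18 for WL2 against Pre (95% interval -0.34 to 0.71, edgeR adjusted p = 0.660), so a fall of the size seen for *Acta2* lay outside the interval.

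Among the regulators of the thin filament, *Tpm2*, the beta tropomyosin that lies along actin, had 44.2, 23.9 and 32.2 CPM at Pre, 37.4, 30.9 and 29.3 at WL1 and 40.3, 43.0 and 37.6 at WL2. All 3 WL2 libraries were above all WL1 libraries, though narrowly, and Pre spanned both. It was the 1 gene of the 9 without overlap between the second and the first week, beside 30.3% of all genes, and its log2 fold change of 0.31 (95% interval -0.12 to 0.74) did not pass the test (edgeR adjusted p = 0.410). At WL2 against Pre it was 0.27 (95% interval -0.16 to 0.71, adjusted p = 0.408). *Lmod1*, a leiomodin that starts new actin filaments in smooth muscle, had 14.2, 6.94 and 8.12 CPM at Pre, 12.9, 6.61 and 8.77 at WL1 and 11.5, 14.4 and 10.5 at WL2. Its phases overlapped, with a log2 fold change of -0.05 at WL1 and 0.32 at WL2 against Pre (95% interval -0.35 to 0.98, adjusted p = 0.536).

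*Cnn1*, the calponin that binds actin and slows the myosin motor, had 6.49, 4.63 and 2.17 CPM at Pre, 1.30, 0.367 and 2.42 at WL1 and 2.19, 2.27 and 2.20 at WL2, from 434 reads in all. Pre replicate 3 was as low as the WL2 libraries, which nearly coincided, so the phases overlapped. The log2 fold change was -1.71 for WL1 and -0.99 for WL2 against Pre (95% interval -2.20 to 0.22, edgeR adjusted p = 0.282). On the log2(FPKM + 1) scale, which understates changes of scarce genes, the first of these was -0.77.

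*Tagln*, which encodes the actin-binding protein transgelin and is a common early marker of smooth muscle, had only 345 reads in all. It had 2.01, 1.43 and 1.29 CPM at Pre, 2.71, 1.93 and 1.57 at WL1 and 3.34, 1.59 and 2.78 at WL2. With all 9 libraries it was the 1 gene of the 10 with a positive log2 fold change at WL1 against Pre (0.40), and the change by WL2 was 0.71 (95% interval -0.09 to 1.5, edgeR adjusted p = 0.244). In the coordinates of the deposited table, 3627 of the 6440 bases of *Tagln* (chromosome 9, 45840917 to 45847356, minus strand) are overlapped on the opposite strand by the long noncoding RNA gene *Gm48529*, with 287 reads, and 108 bases by *Pcsk7*, with 6027 reads. Neither the strand setting nor the treatment of reads on overlapping genes is stated in the available sources. The reads of these genes cannot be told apart, and the level of *Tagln* is uncertain.

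*Des*, the desmin filament that ties contractile units together in muscle cells and pericytes, had 42.8, 63.7 and 36.6 CPM at Pre, 38.3, 35.4 and 31.3 at WL1 and 40.4, 30.8 and 26.2 at WL2. Pre replicate 2 was the highest, and the other Pre libraries lay within or beside the range of the later phases. The log2 fold change was -0.44 for WL1 and -0.55 for WL2 against Pre (95% interval -1.03 to -0.08). This interval excludes 0, but the change did not pass the adjustment over all genes (edgeR adjusted p = 0.133).

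**Figure D3:**
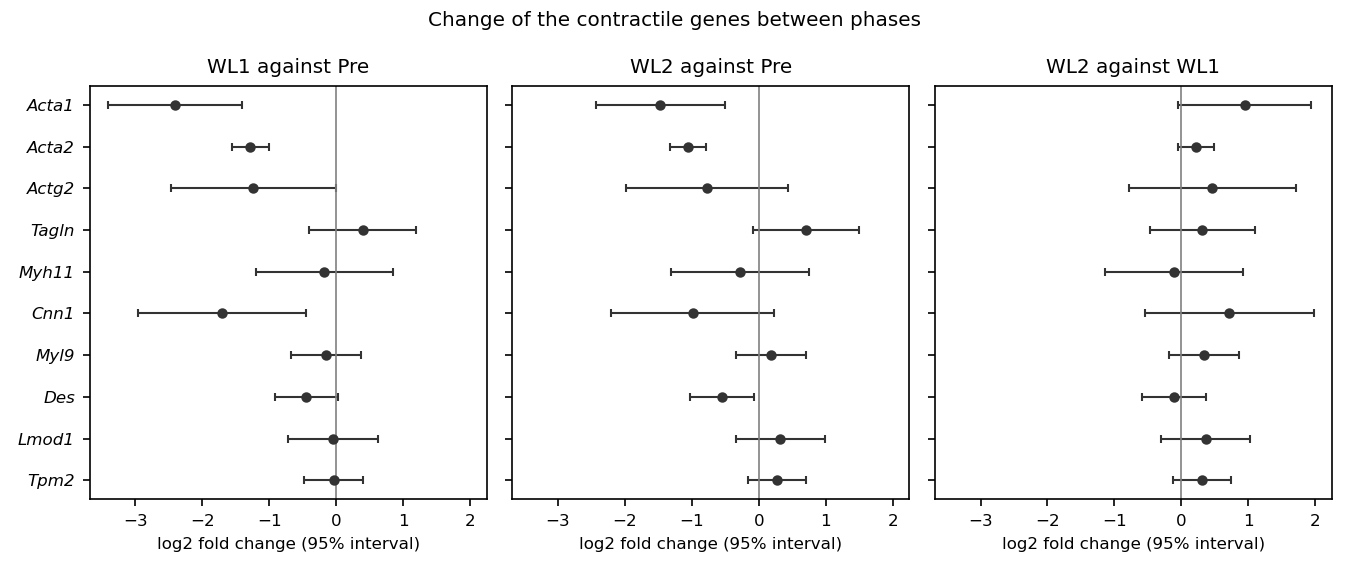
Log2 fold changes (x axes) of the 10 contractile genes in the 3 comparisons, with 95% intervals from edgeR (n = 3 libraries per phase). *Acta2* has the narrowest intervals, at -1.28 and -1.06 against Pre, and the intervals of the second week against the first all include 0. The intervals at WL1 against Pre, and those of *Acta1* in every comparison, are descriptions and not tests.

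Over all 10 genes, the median log2 fold change was -0.31 at WL1 against Pre, with 9 values below 0, beside a median of 0.02 over all genes tested. Without *Acta1*, whose fall there was known beforehand, the median was -0.175, with 8 of 9 below 0. Both tallies rested on Pre replicate 1, without which *Myh11* (0.36), *Lmod1* (0.32), *Tpm2* (0.21) and *Myl9* (0.14) were above 0. At WL2 against Pre the median over all 10 was -0.42, with 6 below 0, and without *Acta1* it was -0.28, with 5 of 9 below 0, beside 0.01 over all genes. At WL2 against WL1 the median without *Acta1* was 0.31, with 7 of 9 above 0, and 0 of 9 genes were called by edgeR, where 3.68% of all genes were. DESeq2 also called 0 of the 9, where it called 11.9% of all genes.

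Per gene length, *Acta2* stood first in each phase. At Pre its mean was 156 FPKM, followed by *Myl9* at 49.7 and *Acta1* at 23.6, and these 3 did not overlap with each other or with *Des* at 11.9, *Tpm2* at 10.8 and *Myh11* at 7.8. The last 3 overlapped, *Myh11* also overlapped with *Lmod1*, and so did the neighbours among *Lmod1* at 2.31, *Actg2* at 2.15, *Cnn1* at 1.52 and *Tagln* at 0.744. At WL1 *Acta2* was at 63.3 and *Myl9* at 43.9, still apart, while *Acta1* had moved from the third to the sixth place at 4.4, overlapping with *Myh11* at 6.82. At WL2 *Acta2* at 75.1 and *Myl9* at 56.3 overlapped, and *Acta1* at 8.58 overlapped with *Tpm2* at 13 and *Des* at 8.09.

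**Figure D4:**
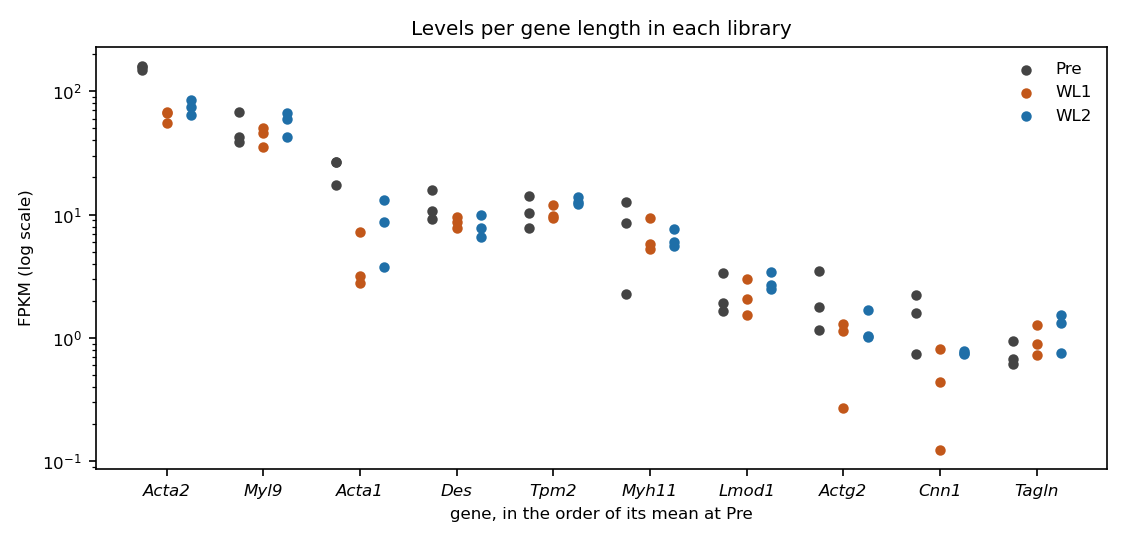
FPKM on a log scale (y axis) of the 10 contractile genes (x axis, ordered by the Pre mean) in each library, with colours for Pre, WL1 and WL2. *Acta2* and *Acta1* show a gap between Pre and the later phases, from 156 to 63.3 and 75.1 and from 23.6 to 4.4 and 8.58 in the means.

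How alike the patterns of the genes were across the 9 libraries is described here by Pearson's r of log2 CPM. These values have no p, since the points share the phases and their libraries. *Acta1* and *Acta2* had an r of 0.90, *Actg2* and *Cnn1* of 0.94, *Lmod1* and *Tpm2* of 0.89, *Myh11* and *Tpm2* of 0.79 and *Myl9* and *Tpm2* of 0.78. *Cnn1* had an r of 0.73 with *Acta1* and 0.74 with *Acta2*, and *Actg2* of 0.62 with *Acta2*. *Acta2* had an r of 0.02 with *Myh11* and with *Myl9*, and of -0.13 with *Tpm2*. Pre replicate 1 was the highest library for 6 of the 10 genes, and WL1 replicate 2 was the lowest for 5. Without Pre replicate 2 and WL1 replicate 2, a setting chosen after seeing the data, *Acta2* was still the 1 gene called of 9 at WL2 against Pre.

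Among 14638 genes with a mean of at least 1 CPM, those most like *Acta1* over the 9 libraries included *Hspb7* (r = 0.985), a small heat shock protein of heart and muscle, *Smtnl2* (0.96), a smoothelin-like gene, *Ust* (0.955), a sulfotransferase, and *Atp6v1c2* (0.953), a proton pump subunit. *Hspb7* went from 104, 118 and 124 CPM at Pre to 37.8, 43.9 and 59.5 at WL1 and 38.8, 65.5 and 89.9 at WL2. As with *Acta1*, no later library reached the Pre level, and at WL2 replicate 3 was the highest and replicate 1 the lowest. For *Acta2* the 5 were *Prdx6* (0.985), a peroxiredoxin, the complement gene *C6* (0.977), *Chpt1* (0.977), which makes phosphatidylcholine, the adenosine kinase gene *Adk* (0.976) and the transporter gene *Slco3a1* (0.973). *Prdx6* went from 550, 532 and 526 CPM at Pre to 188, 182 and 231 at WL1 and 217, 277 and 282 at WL2. None of these 5 is a contractile gene.

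Other genes of smooth muscle contraction were read from a list of 20 partners. Of these, 3 fell and 0 rose at WL2 against Pre (median log2 fold change -0.21), beside 6.66% of all genes that fell and 3.35% that rose. *Mylk*, the myosin light chain kinase, had 202, 140 and 281 CPM at Pre, 92.6, 79.6 and 78.7 at WL1 and 77.9, 84.1 and 111 at WL2. Every later library was below every Pre library. It fell by 1.19 on the log2 scale at WL2 (edgeR adjusted p = 0.00962), a call that was lost without WL2 replicate 2 (log2 fold change -1.13, adjusted p = 0.0543). *Synpo2*, an actin-bundling protein of the Z-disc, had 659, 534 and 594 CPM at Pre, 489, 484 and 386 at WL1 and 321, 228 and 284 at WL2, with no overlap between any phases. It fell by 1.10 (adjusted p = 0.00167), and *Mustn1*, a small muscle protein, fell by 0.73 (adjusted p = 0.00671). The other 17 partners were not called, among them the thin filament genes *Tpm1* (0.34, adjusted p = 0.0548) and *Cald1* (0.03, adjusted p = 0.922), both picked once their values were known. At WL1 against Pre, 1 of the 20 was called lower, beside 4.69% of all genes. At WL2 against WL1, *Synpo2* was the 1 gene called, as lower (-0.71, adjusted p = 0.0362), beside 2.37% of all genes, and this call was lost in 6 of 9 fits that left out 1 library.

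Of 11 genes that control smooth muscle genes, 1 rose and 0 fell at WL2 against Pre, beside 3.35% of all genes that rose and 6.66% that fell. *Klf4*, a transcription factor known to repress smooth muscle genes, had 65.0, 74.4 and 80.1 CPM at Pre, 96.7, 73.2 and 96.7 at WL1 and 109, 122 and 137 at WL2. The WL2 libraries were above all others, and the rise was 0.75 on the log2 scale (edgeR adjusted p = 0.0092). *Srf*, named after its values were seen, had a log2 fold change of -0.18 (adjusted p = 0.513). *Myocd*, its partner in smooth muscle, had 51 reads in all and a log2 fold change of 0.37 (adjusted p = 0.84), too few reads to tell a change in either direction. The SRF partner gene *Mrtfa* had a value of -0.13 (adjusted p = 0.757). At WL2 against WL1, *Csrp2*, a LIM protein of smooth muscle, was the 1 gene called higher (0.69, adjusted p = 0.036), beside 1.31% of all genes, and the call was lost in 5 of 9 fits without 1 library. Between WL1 and Pre 0 of the 11 were called, where 2.60% of all genes were called higher and 4.69% lower.

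**Figure D5:**
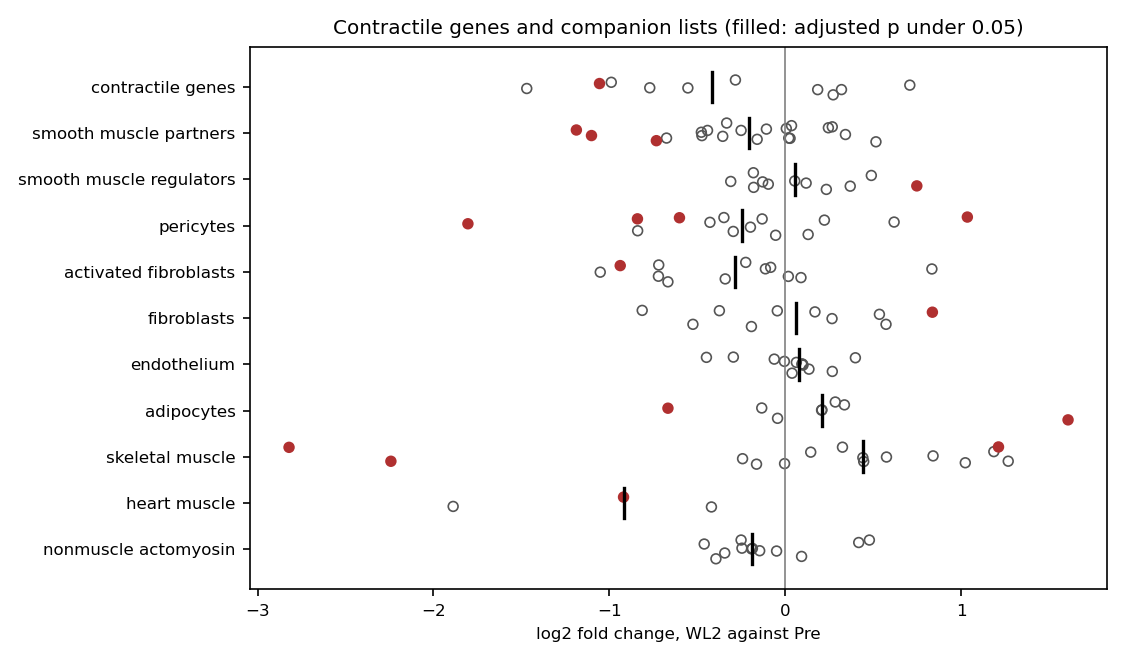
Log2 fold changes at WL2 against Pre (x axis) of the contractile genes and of 10 companion lists (y axis). Each circle is a gene, filled red where its adjusted p was under 0.05 (*Acta1* was not tested), and black bars mark the list medians, which run from -0.92 for the 3 heart genes to 0.44 for the 15 skeletal muscle genes; the mesothelium and epididymis lists are not drawn.

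Markers of the cell types that could carry contractile genes were read from lists. Of 14 pericyte genes, 3 fell and 1 rose by WL2, beside 6.66% of all genes that fell and 3.35% that rose. The median log2 fold change of the 14 was -0.25. *Cspg4*, the NG2 proteoglycan of pericytes, had 58.0, 72.7 and 67.5 CPM at Pre, 30.8, 20.7 and 27.3 at WL1 and 20.8, 19.7 and 16.3 at WL2. It fell by 1.80 on the log2 scale (edgeR adjusted p = 0.000129), with every later library far below Pre. *Steap4*, a metalloreductase gene, fell by 0.84 (adjusted p = 0.00997), and *Mcam*, named after its values were seen, by 0.60 (adjusted p = 0.0461), a call that was lost in 8 of 9 fits without 1 library. *Higd1b* rose by 1.03 (adjusted p = 0.0197), a call lost without Pre replicate 2 (adjusted p = 0.0532). The general pericyte genes *Pdgfrb* and *Rgs5*, also chosen afterwards, had values of -0.20 (adjusted p = 0.294) and -0.35 (adjusted p = 0.406). The summed pericyte markers ranged from 1970 to 2150 CPM at Pre, from 1220 to 1750 at WL1 and from 1190 to 1610 at WL2. This sum rested largely on *Mcam*, with means of 724 CPM at Pre and 477 at WL2, and *Steap4*, with 682 and 381. At WL2 against Pre, 10 of the 14 genes had a log2 fold change below 0 and 4 above. *Abcc9*, also chosen afterwards, was higher in all WL2 than in all Pre libraries (0.62, adjusted p = 0.0595). The part of pericytes in the fall of *Acta2* was not tested.

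At WL2 against Pre, 6.66% of all genes fell and 3.35% rose. Of 12 genes of activated fibroblasts, 1 fell and 0 rose (median -0.28). This was *Thy1*, which fell by 0.94 (edgeR adjusted p = 0.00257), from 33.4, 47.8 and 42.0 CPM at Pre to 27.1, 24.0 and 28.1 at WL1 and 21.2, 20.2 and 22.9 at WL2. *Postn*, the periostin of myofibroblasts, had 261, 132 and 347 CPM at Pre and 291, 225 and 233 at WL2, a log2 fold change of 0.02 (adjusted p = 0.977). The summed list ranged from 1280 to 2130 CPM at Pre, 1300 to 2000 at WL1 and 1160 to 1450 at WL2, with overlap throughout. Of 10 general fibroblast genes, 1 rose, *Dcn* (0.84, adjusted p = 0.0215), a call lost in 4 of 9 fits without 1 library, and 0 fell. Of 12 endothelial genes, 0 were called at WL2 against Pre (median 0.08), and of 12 genes of the nonmuscle actin and myosin machinery 0 were called (median -0.19).

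Since *Acta1* marks skeletal muscle in most tissues, 25 skeletal muscle genes were read beside it. Of these, 4 had no read in any library and 15 passed the filter. The muscle creatine kinase gene *Ckm* had 4 reads in all 9 libraries together, and the fast myosin gene *Myh4* had 0. Other genes of the list were well covered, such as *Myl1* with 4316 reads and *Ryr1* with 1446. These 4 genes were named after their values were seen. Among the 15, 2 fell and 1 rose at WL2 against Pre, beside 6.66% of all genes that fell and 3.35% that rose. *Pvalb*, the calcium buffer parvalbumin, fell by 2.82 on the log2 scale (edgeR adjusted p = 0.000984) and *Casq1*, a calsequestrin, by 2.24 (adjusted p = 0.00614). *Pvalb* had 8.38, 7.22 and 9.60 CPM at Pre, 5.0, 7.07 and 12.7 at WL1 and 1.15, 1.53 and 0.869 at WL2, so that, unlike *Acta1*, it was lower at WL2 only. *Casq1* had 5.31, 2.54 and 6.83 CPM at Pre, 1.85, 1.65 and 2.36 at WL1 and 1.37, 0.906 and 0.811 at WL2. Like *Acta1*, it was lower in every later library than in every Pre library, though it was not called at WL1 (-1.33, adjusted p = 0.0599). *Eno3*, the muscle enolase, named after its values were seen, rose by 1.21 (adjusted p = 0.000704). The summed list held 57.1 to 67.2 CPM before weight loss, 56.5 to 65 after 1 week and 63.5 to 71.8 after 2 weeks. These ranges overlapped throughout, but the sum rested largely on a few genes that moved in different directions. *Myl1* averaged 27.75 CPM before weight loss, 18.9 after 1 week and 30.7 after 2 weeks. Between the Pre and WL2 means, *Eno3* went from 7.67 to 17.8 CPM, *Pvalb* from 8.40 to 1.18 and *Casq1* from 4.89 to 1.03. Each WL1 and WL2 value of *Acta1* lay below each Pre value, and the part of skeletal muscle in this fall was not tested.

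The remaining lists describe the tissue around these genes. At WL2 against Pre, where 6.66% of all genes fell and 3.35% rose, 1 heart gene fell of the 3 that passed the filter, from a list of 10. This was *Myl4* (-0.92, edgeR adjusted p = 0.0302), a call lost in 4 of 9 fits without 1 library. Genes of the epididymis were nearly absent, with 0 of 16 past the filter and at most 0.554 CPM in sum. The 8 adipocyte genes summed to 22900 to 30800 CPM at Pre, 17600 to 24200 at WL1 and 28600 to 32100 at WL2, so that WL1 and WL2 did not overlap. All 8 had a log2 fold change below 0 at WL1 against Pre and above 0 at WL2 against WL1, and their part in the values above was not tested. Of these, *Cidec* fell by 0.67 at WL2 against Pre (adjusted p = 0.00456), a call lost with limma on log2(FPKM + 1) and log2(FPKM + 0.1) (adjusted p = 0.0774 and 0.0891). *Cfd* rose by 1.61 (adjusted p = 0.0299), a call lost in 4 of 9 fits without 1 library. Mesothelial genes, from the surface layer of the fat pad, summed to 47.4 to 459 CPM at Pre, 53.4 to 281 at WL1 and 300 to 861 at WL2. None of the 11 was called at WL2 against Pre, all 11 log2 fold changes were above 0 (median 1.06), and their part in the values above was not tested. Between WL1 and Pre, 4.69% of all genes were called lower and 2.60% higher. In the lists, 2 of 14 pericyte genes, 2 of 8 adipocyte genes and 1 of 12 genes of activated fibroblasts were called lower, and 1 of 15 skeletal muscle genes was called higher. Of the fibroblast, endothelial, nonmuscle, heart and mesothelial genes, 0 were called. Of the calls in the lists, *Steap4*, *Thy1* and *Eno3* were each lost in 5 of 9 fits without 1 library and *Plin1* in 8, and all 4 were lost with the replicate number as a block (adjusted p = 0.0693, 0.0526, 0.0626 and 0.0641). *Cspg4* and *Cidec* were called in all 9 and with the block, and *Cidec* was not with limma on log2(FPKM + 0.1) (adjusted p = 0.0501). Between WL2 and WL1, the adipocyte genes *Cfd* and *Pparg*, the second named after its values were seen, were called higher, calls lost in 5 and 6 of 9 fits without 1 library, and *Pvalb* was called lower, in all 9. There, 0 genes of the pericyte, fibroblast, endothelial, nonmuscle, heart and mesothelial lists were called, while 1.31% of all genes were called higher and 2.37% lower.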

How the data were processed

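Total RNA of epididymal adipose tissue was sequenced in 9 libraries, 3 per phase, grouped and numbered by their labels. The authors deposited 1 table of raw counts and 1 of FPKM, both per gene and library. The submitters' processing notes name CASAVA, HISAT2, HISAT, TopHat2, GRCm38 and mm10; no available source states the counting program, strand setting or annotation. Of 52073 genes shared with GENCODE M21, 1472 had the same coordinates, so gene coordinates are those of the deposited table, without a build. Promoters were those of RefSeq on GRCm38.p6.

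The deposited counts were tested in R 4.3.3 with the quasi-likelihood test of edgeR 4.0.16 (TMM factors, 1 model over 9 libraries, 18510 genes that reached 0.5 CPM in 1 or more libraries, Benjamini-Hochberg adjustment over all of them, threshold 0.05, common dispersion 0.0478). CPM were divided by TMM factors of 0.933 to 1.07, and log2 CPM used a prior count of 4. FPKM served for levels between genes and for limma 3.58.1 as an alternative, beside DESeq2 1.42.0.

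The genes and lists were chosen with earlier results of these data known. Named are all 10 contractile genes, *Actc1*, *Actb* and *Actg1*, the 3 genes of each list with the largest change at WL1 and at WL2 against Pre where the text describes the list, the 5 genes most like *Acta1* and *Acta2*, and those said to be singled out later. Further named-rule genes that were not called are left out of the text. Also, 1 gene that the rule names is not reported here. On simulated counts of 18510 genes for WL2 against Pre, 140 of 200 genes changed 4-fold were recovered, with 3 false calls. Read counts without molecular identifiers carry counting error that is wide for genes near 0.5 CPM. No 2 libraries of a phase were duplicates (chi-square of their counts per degree of freedom, 9.13 to 48.9).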

Additional observations from a re-analysis of the deposited data

How the results depend on the processing

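The number of contractile genes called, 1 of 9 at WL2 against Pre and 0 of 9 at WL2 against WL1, was the same under 18 alternatives: RLE size factors, no filter, a filter on 3 libraries, DESeq2, fits of only the 2 phases compared, limma on log2(FPKM + 1) or on log2(FPKM + 0.1), the replicate block, each library left out, and Pre replicate 2 and WL1 replicate 2 left out together (chosen after seeing the data). *Acta2* at WL2 against Pre ranged from -1.15 to -0.97 (highest adjusted p = 0.00517). The median over the 10 genes at WL2 against Pre ranged from -0.505 to 0.005 without 1 library, the highest value being that without Pre replicate 1. Signs turned without passing the threshold for *Myh11* at WL2 against Pre (0.014 with limma on log2(FPKM + 0.1), and -0.721 to 0.249 without 1 library, the highest without Pre replicate 1), *Myh11* at WL2 against WL1 (-0.247 to 0.194, the highest without WL1 replicate 1) and *Des* at WL2 against WL1 (-0.296 to 0.023, the highest without WL2 replicate 3). At WL1 against Pre, described without a test, *Myh11* (up to 0.358), *Lmod1* (0.318), *Tpm2* (0.211) and *Myl9* (0.138) were above 0 without Pre replicate 1. *Lmod1* was also above 0 without WL1 replicate 2, *Tpm2* without WL1 replicate 3 and *Myh11* with both limma settings. The cause was not tested.

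Replicate numbers did not pair the libraries: deviations of same-numbered libraries had r between -0.277 and 0.107. With the number as a replicate block, *Acta2* at WL2 against Pre was -1.06 (adjusted p = 0.00354), and the share of all genes called was 4.56%, 7.56% and 1.78% at WL1 against Pre, WL2 against Pre and WL2 against WL1. It was 14.4%, 16% and 11.9% with DESeq2. Without 1 library it ranged from 2.79% to 8.16%, from 4.05% to 9.18% and from 0.202% to 7.35% in the 3 comparisons, so the background of each is uncertain. *Actg2*, *Tagln* and *Cnn1*, with 345 to 434 reads in all libraries together, are the least precisely measured.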
